A study of Rattus norvegicus with 12 samples.

Results

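The blood lineage transcription factors described here are 10 genes chosen by name for their role: Gata1, Gata2, Tal1, Lmo2, Nfe2, Gfi1b, Gfi1, Runx1, Spi1 and Cebpe. They are 10 of the 17379 features that can be counted in these libraries, and all 10 were found, on 13 RefSeq transcripts. Lmo2 has 4 of these transcripts and every other gene has 1. RNA was sequenced from 12 libraries of male SAS Fischer rats weighing 200 to 225 g, in 4 groups of 3. The hematoma, the clot that fills a bone defect, came from a femoral defect of 0.5 mm that heals (normal), of 1.5 mm that heals late (delayed) or of 5.0 mm that does not heal (nonunion). The preOP group is healthy femur with no treatment, cut out when the 5.0 mm defects were made. Neither the days after surgery at which hematomas were taken nor an animal number is in the labels used here. A nonunion hematoma and a preOP piece may therefore come from one animal, and p-values measure only the spread between these samples.

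Blood cells form in the marrow from stem and progenitor cells, and a small set of transcription factors steers each branch. Tal1, Lmo2, Gata2 and Runx1 act in stem and progenitor cells. Gata1 drives red cell, megakaryocyte, eosinophil and mast cell development, and it takes over from Gata2 at many sites as red cells mature. Tal1 and Lmo2 join Gata1 in one DNA-binding complex, in which Lmo2 is the bridge that touches no DNA. Nfe2 is the large subunit of a factor needed for platelet release and globin expression, and Gfi1b is a repressor of the red cell and megakaryocyte branches. Spi1 opposes Gata1 and directs monocytes, granulocytes and B cells, Gfi1 is a repressor of the granulocyte branch, and Cebpe switches on the late granule genes of neutrophils and eosinophils. Runx1 and Lmo2 are also used by cells outside the marrow, such as activated leukocytes and endothelium.

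Upstream sequence is shown for 3 members of the red cell branch, since the largest differences below were in these genes. RefSeq's table for the rat build GRCr8 held the 250 bases before the start of 7 of the 10 genes (not Lmo2, Nfe2 and Spi1). Sequences run 5′ to 3′ on the gene's own strand and end at the base before its start. Capitals mark matches, on either strand, to any of 4 sets of words: for GATA factors the word AGATAA, the word AGATAG, the word TGATAA and the word TGATAG, for the E-box that Tal1 can bind the word CAGATG and the word CAGCTG, for the ETS family of Spi1 GAGGAA, and for Runx factors TGTGGT. The windows are chrX:17201387-17201636 on the plus strand for Gata1, chr3:32350902-32351151 on the minus strand for Gfi1b and chr5:133824214-133824463 on the plus strand for Tal1.
Gata1: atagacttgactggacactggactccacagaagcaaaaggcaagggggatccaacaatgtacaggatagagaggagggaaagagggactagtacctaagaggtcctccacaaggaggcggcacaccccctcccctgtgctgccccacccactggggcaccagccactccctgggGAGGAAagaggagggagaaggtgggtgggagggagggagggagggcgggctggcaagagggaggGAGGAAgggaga
Gfi1b: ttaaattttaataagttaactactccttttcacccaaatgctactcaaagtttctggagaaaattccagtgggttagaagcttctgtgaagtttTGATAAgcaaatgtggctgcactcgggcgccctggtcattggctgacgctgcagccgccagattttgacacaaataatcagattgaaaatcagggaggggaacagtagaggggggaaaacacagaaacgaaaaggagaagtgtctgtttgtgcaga
Tal1: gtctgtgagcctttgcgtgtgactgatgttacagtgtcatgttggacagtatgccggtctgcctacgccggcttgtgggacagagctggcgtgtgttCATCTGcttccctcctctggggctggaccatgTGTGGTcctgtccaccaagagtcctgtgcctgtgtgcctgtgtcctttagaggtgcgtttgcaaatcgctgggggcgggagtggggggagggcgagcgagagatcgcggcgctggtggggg
Gata1 held the ETS word with first bases 76 and 12 bases before the start, and Cebpe, the other member with it, held it at 227 and 31. The GATA word in Gfi1b began 156 bases before the start, and it was the only GATA match among the 7 windows. Tal1 held an E-box at 153, on the opposite strand, and a Runx word at 121. Gata2, Gfi1 and Runx1 held none of these words. Across 33469 promoter windows of the same length, 27.0% held a GATA word, 24.3% an E-box, 23.3% the ETS word and 14.5% the Runx word, so each match is of a kind that many promoters have. No matches overlapped each other.

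Library totals ran from 16808993 to 24325162 estimated reads. Reads on the 10 genes numbered 26010 to 29787 per preOP library and 1077 to 6493 per hematoma library. Ribosomal RNA and transcripts linked to it took 80.39% of all reads in nonunion 2 and no more than 1.95% elsewhere. Nonunion 2 also stood apart in summed adipocyte markers, at 9116 counts per 1e6 reads (CPM, scaled by the TMM method of edgeR) over 6 genes, against at most 650.5 in any other library. Library delayed 2 stood apart in 7 skeletal muscle markers, at 37920 CPM against at most 5263 in the other hematomas. Globin genes took 15.66% to 23.98% of preOP reads and at most 2.96% of hematoma reads. The 3 normal files had shorter estimated fragments than the other 9, since effective lengths fell short of full transcript lengths by a median of 157.2 to 191.6 bases there and of 194.3 to 254.6 bases in the rest. No batch is named in the labels used here, and the nearest values, 191.6 in normal 1 and 194.3 in nonunion 2, lie close together. The normal files also differed from the rest in number format. Fragment length, file format and group cannot be told apart in comparisons with normal.

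The first comparison asks how each factor in the hematoma stood against healthy femur. In the mean of the 3 hematoma groups, 6 of the 10 factors fell and 0 rose: Gata1, Tal1, Gfi1b, Gfi1, Nfe2 and Gata2, by 16.8-fold to 174-fold (edgeR quasi-likelihood test, Benjamini-Hochberg adjusted p below 0.05, here and below). Across all 12846 features tested, 40.6% were called, 23.0% lower and 17.6% higher. For 7 factors, these 6 and Lmo2, every hematoma lay below every preOP library, a separation that 17.7% of all features had. The reverse separation was seen for 0 factors and 12% of all features. The median log2 fold change was -4.23 over the 10 factors and -0.02 over all features. Lmo2, Cebpe, Runx1 and Spi1 were not called in this mean. In bulk tissue, fewer cells of a type and less RNA per cell cannot be told apart.

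**Figure D1:**
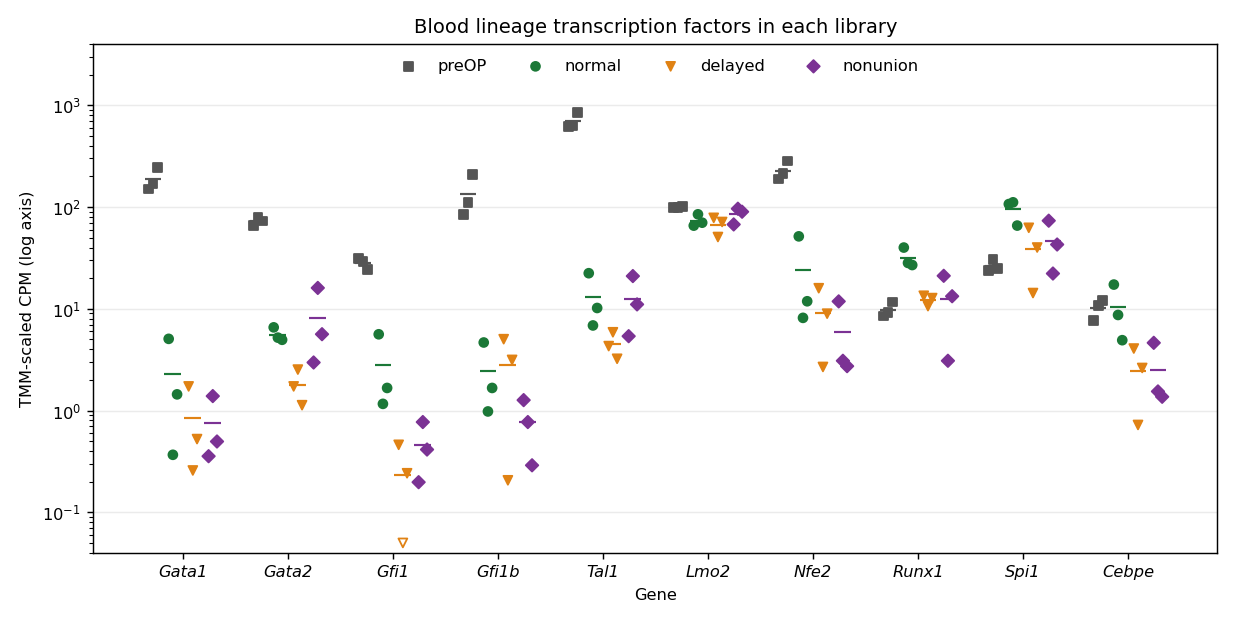
Level of each factor in each of the 12 libraries, as TMM-scaled CPM on a log axis. Points are libraries, short lines are group means, and the open triangle marks Gfi1 in delayed 2, which had 0 reads and is drawn at the bottom of the axis. For Gata1, Gata2, Gfi1, Gfi1b, Tal1 and Nfe2 the 3 preOP points lie far above all 9 hematoma points, while for Runx1 and Spi1 most hematoma points lie above preOP.

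Gata1 is the master factor of red cells. It was present at 150.1, 169.3 and 245.2 CPM in preOP 1, 2 and 3. In normal hematomas 1, 2 and 3 it stood at 5.06, 0.367 and 1.44 CPM, in delayed at 1.73, 0.258 and 0.524 CPM, and in nonunion at 0.356, 1.39 and 0.496 CPM. Every hematoma was below every preOP library, and the hematoma values rest on 5 to 101 reads each. Gata1 fell by 7.44 on the log2 scale in the mean hematoma (SE 0.63, adjusted p = 1.32e-05), which is 174-fold.

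Tal1 is a helix-loop-helix partner of Gata1 and the most abundant of these factors in preOP, at 623.7, 637.8 and 850.2 CPM. The normal hematomas had 22.4, 6.86 and 10.2 CPM, the delayed 4.30, 5.88 and 3.23 CPM, and the nonunion 5.38, 21.0 and 11.0 CPM. No hematoma came near the preOP range, and normal 1 and nonunion 2 were the highest of the 9. Tal1 fell by 6.29 on the log2 scale (SE 0.40, adjusted p = 1.91e-06).

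Gfi1b, the repressor of the red cell and megakaryocyte branches, showed the widest spread within preOP relative to its mean (CV 49%), with 84.4, 111 and 210.1 CPM. It was at 4.66, 0.980 and 1.67 CPM in normal, 5.03, 0.206 and 3.15 CPM in delayed and 1.27, 0.771 and 0.290 CPM in nonunion hematomas. Delayed 1 was the highest hematoma and delayed 2 the lowest, so the delayed group covered the whole hematoma range. Gfi1b fell by 6.27 (SE 0.66, adjusted p = 4.86e-05).

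Nfe2, the platelet and globin factor, was at 188.2, 212.5 and 283.3 CPM in preOP. In normal hematomas it was at 51.5, 8.14 and 11.85 CPM, in delayed at 15.9, 2.68 and 8.95 CPM, and in nonunion at 11.8, 3.08 and 2.73 CPM. Normal 1 stood well above the other hematomas and still below every preOP library. Nfe2 fell by 4.38 (SE 0.59, adjusted p = 0.000215).

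Gata2, the progenitor and mast cell factor, was at 66.3, 78.9 and 72.8 CPM in preOP. It was at 6.57, 5.20 and 4.96 CPM in normal, 1.73, 2.53 and 1.13 CPM in delayed and 2.97, 16.0 and 5.63 CPM in nonunion hematomas. Its highest hematoma was nonunion 2, and the delayed libraries lay below all the others. Gata2 fell by 4.07 (SE 0.37, adjusted p = 2.04e-05), the smallest fall among the 6 called factors.

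Nonunion 2 also carried the mast cell protease genes at higher levels than the other hematomas. Cma1, a chymase, stood at 21.7 CPM there where the other 8 had no more than 2.39 CPM, and Cpa3, a carboxypeptidase, at 19.1 CPM where the others had no more than 3.15 CPM. Tpsab1, Tpsb2 and Kit were also highest there, at 3.08, 6.47 and 11.25 CPM. The mast cell genes Ms4a2, Fcer1a and Hdc were not. Ms4a2 was at 6.78 CPM against 8.52 CPM in normal 1, and Hdc at 5.24 CPM against 21.95 CPM in normal 3. Fcer1a was at 0.308 CPM, below the level of 3 reads there, against 0.652 CPM in normal 1. Summed endothelial markers were 1747 CPM in nonunion 2 and no more than 913.3 CPM in any other hematoma, over 10 genes. The part of mast cells or endothelium in the Gata2 level of that library was not tested.

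Gfi1, the granulocyte repressor, was at 31.2, 29.0 and 24.4 CPM in preOP. In normal hematomas it was at 5.61, 1.16 and 1.67 CPM, and in nonunion at 0.198, 0.771 and 0.414 CPM. Delayed 1 and 3 had 0.461 and 0.242 CPM, and delayed 2 had 0 reads, which allows a level of up to 0.155 CPM for counting error only. The 3 normal hematomas were thus above all 6 others and below preOP. In the mean hematoma Gfi1 fell by 5.41 (SE 0.58, adjusted p = 5.9e-05).

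For these 6 factors the fall kept its call under each of 23 alternative settings for the mean hematoma, including each library left out in turn. In each hematoma group against preOP on its own, the same 6 were called lower. Nfe2 in normal lost its call without normal 3 (adjusted p = 0.0531). These 3 comparisons share the preOP libraries, and their values stand side by side in the plot of fold changes. Gata1 fell by 6.35 in normal, fell by 7.78 in delayed and fell by 8.20 in nonunion, with SE from 0.96 to 1.08. Gfi1 differed by -3.32 in normal, -6.82 in delayed and -6.09 in nonunion (SE 0.81 to 0.98).

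**Figure D2:**
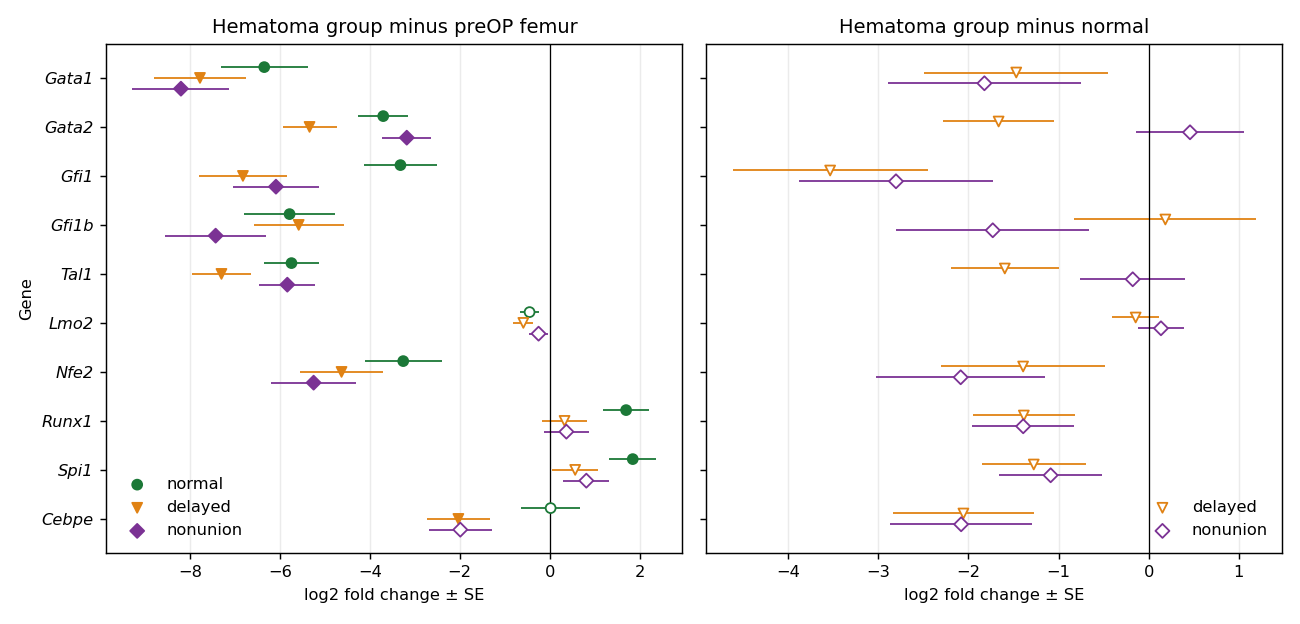
Log2 fold change with its SE for each factor, for each hematoma group minus preOP on the left and for delayed and nonunion minus normal on the right. Filled symbols passed the adjusted p of 0.05 and open symbols did not. On the left the 6 factors from Gata1 to Nfe2 other than Lmo2 lie far below 0 in all 3 groups, and Runx1 and Spi1 lie above 0 with a call in normal only. On the right every symbol is open.

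Lmo2, the bridging protein of the Gata1 and Tal1 complex, did not share that fall. It was at 99.6, 99.5 and 101.8 CPM in preOP. Normal hematomas had 65.6, 84.8 and 70.1 CPM, delayed 78.3, 50.7 and 71.3 CPM, and nonunion 67.4, 96.2 and 89.85 CPM. All 9 hematomas were below every preOP library, with a log2 fold change of -0.43 in the mean (SE 0.18, adjusted p = 0.0734). Its direction depended on the scale in delayed against preOP, where limma on log2(TPM + 0.1) gave 0.11 in place of -0.59. TPM is reads per length, scaled to a total of 1000000 in each library.

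Runx1, the core-binding factor of stem cells that mature leukocytes also use, was at 8.49, 9.155 and 11.65 CPM in preOP. It was at 39.95, 28.2 and 26.9 CPM in normal, 13.4, 10.6 and 12.7 CPM in delayed and 21.1, 3.08 and 13.3 CPM in nonunion hematomas. Of the 9 hematomas 7 were above every preOP library, and nonunion 2 was below them on 20 reads. In the mean hematoma the log2 fold change was 0.80 (SE 0.43, adjusted p = 0.158).

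Spi1, the monocyte and granulocyte factor, was at 23.8, 30.3 and 24.7 CPM in preOP. Normal hematomas had 106.9, 111.2 and 65.7 CPM, delayed 62.5, 14.3 and 40.01 CPM, and nonunion 73.4, 22.2 and 42.8 CPM. Again 7 of 9 hematomas were above every preOP library, and the exceptions were delayed 2 and nonunion 2. The mean hematoma differed by 1.08 (SE 0.44, adjusted p = 0.0739).

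In normal against preOP, Runx1 rose by 1.70 (SE 0.51, adjusted p = 0.0202) and Spi1 by 1.85 (SE 0.52, adjusted p = 0.0156), or 3.25-fold and 3.6-fold. With the 6 that fell, 8 of 10 factors were called there, where 42.6% of all features were (20.5% higher, 22.1% lower). The Runx1 call was lost without normal 1, preOP 1 or preOP 2 (adjusted p up to 0.0647) and the Spi1 call without preOP 1 or preOP 3 (up to 0.0561). With limma on log2(TPM + 0.1) both calls were lost.

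In nonunion against preOP 6 factors were called, all lower, against 28.4% of all features (14.9% lower). Spi1 differed by 0.57 in delayed and 0.81 in nonunion against preOP, and Runx1 by 0.33 and 0.37, all without a call. Without delayed 2 and nonunion 2, Spi1 rose in the mean hematoma (1.48, adjusted p = 0.000752) and so did Runx1 (1.15, adjusted p = 0.00182). Leaving out nonunion 2 alone also gave both calls, and leaving out delayed 2 alone gave that of Spi1. Summed markers of all leukocytes, 7 genes, were 848.4 CPM in delayed 2 and 832.1 CPM in nonunion 2, against 1296 to 2995 CPM in the other hematomas and 1778 to 2366 CPM in preOP. Macrophage markers, 8 genes, ran from 805.8 CPM in delayed 2 to 1693 CPM in nonunion 2 among hematomas and from 460 to 761.6 CPM in preOP, with 0 markers of either list at 0 reads. Delayed 2 was thus the lowest hematoma for macrophage markers and nonunion 2 the highest. Their part in the Spi1 and Runx1 levels was not tested.

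Cebpe, the late granulocyte factor, was at 7.60, 10.85 and 12.02 CPM in preOP. It was at 17.3, 8.69 and 4.91 CPM in normal, 4.07, 0.722 and 2.62 CPM in delayed and 4.63, 1.54 and 1.365 CPM in nonunion hematomas. Normal thus spanned the preOP range, and all 6 delayed and nonunion libraries lay below it. Against preOP the log2 fold change was 0.02 in normal, -2.03 in delayed (SE 0.69, adjusted p = 0.0485) and -1.99 in nonunion (SE 0.70, adjusted p = 0.0529). The delayed call made 7 of 10 factors called there, all lower, against 28.2% of all features (15.6% lower). It was lost in 15 of 18 alternatives, among them the removal of any 1 delayed or preOP library (adjusted p 0.0554 to 0.154).

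The order of the factors also differed between femur and hematoma when levels were put on the per-length TPM scale. In preOP the order of mean TPM was Tal1 at 151, Nfe2 at 136, Gata1 at 97.7, Gfi1b at 80.9, Lmo2 at 67.9, Spi1 at 20.6, Gata2 at 19.9, Cebpe at 14.0, Gfi1 at 11.4 and Runx1 at 4.39. The ranges of neighbours overlapped for Tal1 and Nfe2, Gata1 and Gfi1b, Gfi1b and Lmo2, Spi1 and Gata2, and Cebpe and Gfi1.

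In normal hematomas Spi1 led at 94.3 mean TPM, before Lmo2 at 63.9, Nfe2 at 20.2, Runx1 at 19.4 and Cebpe at 18.4. Spi1 and Lmo2, Lmo2 and Nfe2, and Cebpe and Tal1 were the neighbours there whose ranges stayed apart. In delayed hematomas Lmo2 led at 74.7 TPM, with Spi1 at 49.3 and Runx1 at 9.03, and in nonunion Lmo2 at 67.2, Spi1 at 53.5 and Runx1 at 9.06. Lmo2 and Spi1 overlapped in both of these groups. In delayed only Spi1 and Runx1, and Tal1 and Gata2, were neighbours whose ranges stayed apart, and in nonunion the range of each neighbour overlapped the next. Gata1, the third factor in preOP, averaged 1.74, 0.702 and 0.323 TPM in normal, delayed and nonunion, among the lowest 2 of the 10 in each. TPM in nonunion 2 is lowered by the ribosomal RNA in that library, with Lmo2 at 18.1 TPM there against 54.2 or more in every other library.

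Ratios within a library put pairs of factors side by side, as differences of log2(TPM + 0.1). Gata1 and Gata2 exchange places as red cells mature. The ratio of Gata1 to Gata2 was 2.13, 2.06 and 2.70 in preOP, and in hematomas it ran from -2.40 to 0.87 with a median of -1.81. The groups did not overlap. The mean was 2.30 ± 0.35 (SD, n = 3) in preOP and -1.11 ± 1.27 (SD, n = 9) in hematomas, with a two-sided exact permutation p of 0.0045, the smallest that 220 arrangements can give (adjusted p = 0.00682 over 3 ratios).

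Gata1 and Spi1 oppose each other in early progenitors. The ratio of Gata1 to Spi1 was 2.10, 1.92 and 2.75 in preOP and -8.19 to -3.99 in hematomas, a difference in means of -8.43 (exact permutation p of 0.0045, the smallest possible, adjusted p = 0.00682). Gata1 was at 85.51 to 111 TPM and Spi1 at 16.37 to 25.55 TPM in preOP, while in hematomas Gata1 was at 0.199 to 3.835 TPM and Spi1 at 4.712 to 117.8 TPM. With libraries under 10 reads of either gene left out, both ratios missed the threshold (adjusted p = 0.0536), at differences of -2.65 and -8.20. Fewer libraries allow fewer arrangements and so raise the smallest possible p. Gata1 to Spi1 reached that smallest p and Gata1 to Gata2 did not.

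The repressors Gfi1b and Gfi1 are close relatives used in different branches. The ratio of Gfi1b to Gfi1 was 2.07, 2.58 and 3.73 in preOP and 0.10 to 3.74 in hematomas, so the groups overlapped (difference in means -1.31, exact permutation p = 0.173, adjusted p = 0.173). It lay at 0.36, 0.32 and 0.58 in normal 1, 2 and 3, at 3.69, 1.58 and 3.74 in delayed and at 2.64, 0.33 and 0.10 in nonunion. With a pseudocount of 1 in place of 0.1 the difference was -2.00 (adjusted p = 0.00909), so this value depends on how levels close to 0 are treated.

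**Figure D3:**
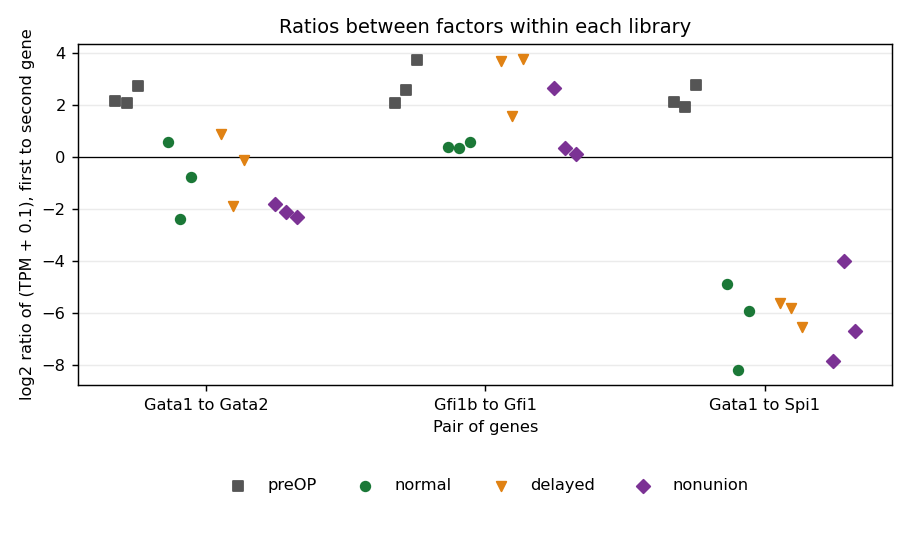
Log2 ratio of one factor to another within each library, on the scale of TPM + 0.1. Each point is 1 library. The preOP squares lie above every hematoma for Gata1 to Gata2 and for Gata1 to Spi1, and among the hematomas for Gfi1b to Gfi1.

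Lmo2 differed between femur and hematoma in which of its 4 transcripts the reads were assigned to, a pattern picked out after its values were seen. The transcripts are 1504 to 1639 bases long and their division is Salmon's estimate. Transcript NM_001244779 took 76.6%, 75.5% and 84.5% of Lmo2 reads in preOP 1, 2 and 3. In hematomas it took 0% to 7.8% with a median of 0%, and the groups did not overlap. The difference in means was -77.0 percentage points, given with no test, and it stayed between -78.7 and -74.2 points in all 14 alternatives.

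Transcript NM_001244780 took 13.6% to 23.0% of Lmo2 reads in preOP and a median of 93.6% in hematomas. Its share was 70.4% or more in 8 of the 9 hematomas. Normal 1 was the exception, with 3.6% on that transcript, 60.7% on NM_001037358 and 31.8% on NM_001244781. The total level of Lmo2 in normal 1, at 65.6 CPM, was the lowest of the 3 normal libraries.

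**Figure D4:**
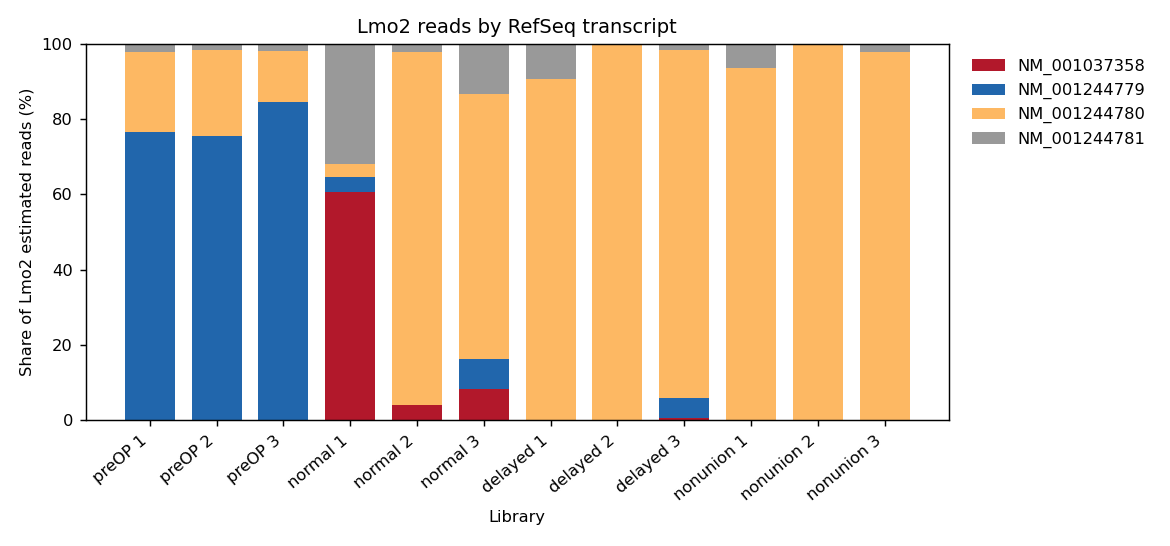
Share of Lmo2 estimated reads given to each of its 4 RefSeq transcripts, in percent, with 1 bar per library. The 3 preOP bars are mostly NM_001244779, 8 hematoma bars are mostly NM_001244780, and normal 1 is mostly NM_001037358.

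The next comparisons ask whether the factors differed between hematomas of different defects. In delayed against normal 0 of the 10 factors were called, while 7.13% of all 12474 features were (2.68% higher, 4.45% lower). At an unadjusted p below 0.05 there were 5 factors, Gfi1, Gata2, Tal1, Cebpe and Runx1, all lower in delayed, where 14.5% of all features were lower at that threshold, and DESeq2 called 1, Gfi1. The median log2 fold change was -1.43 over the 10 factors and 0.02 over all features.

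Gfi1 came nearest to a call, at -3.54 (SE 1.08, adjusted p = 0.0824). Cebpe differed by -2.06 (SE 0.78, adjusted p = 0.145), Gata2 by -1.67 (SE 0.62, adjusted p = 0.138) and Tal1 by -1.60 (SE 0.60, adjusted p = 0.14). For these 4, Runx1 and Spi1 the 3 delayed libraries all lay below the 3 normal ones, a separation in that direction that 20.4% of all features had. Without delayed 2 and nonunion 2, Gata2 (-1.89, adjusted p = 0.0338) and Runx1 (-1.20, adjusted p = 0.0391) fell. With only the 6 libraries compared in the fit Runx1 was called.

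In nonunion against normal 0 factors were called as well, against 2.37% of all features, with 3 at an unadjusted p below 0.05 (Cebpe, Gfi1 and Runx1, all lower, as 11.7% of all features were) and 0 by DESeq2 or limma-voom. Cebpe differed by -2.08 (SE 0.79, adjusted p = 0.179), Gfi1 by -2.80 (SE 1.07, adjusted p = 0.183) and Runx1 by -1.39 (SE 0.56, adjusted p = 0.204). These 3 had nonunion libraries all below normal, as 15.5% of all features did. Both comparisons share the normal libraries.

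Normal 1 had the highest hematoma level for 6 of the 10 factors, and delayed 2 the lowest for 7. Normal 1 also had 9014 CPM of 7 mature neutrophil markers, against 1459 and 1654 CPM in normal 2 and 3, 71.1 to 1175 CPM in delayed, 52.0 to 595.1 CPM in nonunion and 7451 to 9560 CPM in preOP. Of these 7 markers Fpr1 was at 0 reads in nonunion 2 and 3. Without normal 1 the log2 fold change of Tal1 in nonunion against normal was 0.46 in place of -0.18. The part of neutrophils in the Gfi1 and Cebpe levels was not tested.

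In nonunion against delayed 0 factors were called, and so were 0 of all features (0%), with edgeR, with 2 factors higher at an unadjusted p below 0.05, as 4.68% of all features were, and 0 called by DESeq2. Gata2 was higher in each nonunion library than in any delayed library, a separation that 5.6% of all features had, at 2.12 (SE 0.63, unadjusted p = 0.00799, adjusted p = 0.486). Tal1 differed by 1.42 (SE 0.60, unadjusted p = 0.0412, adjusted p = 0.686), and the other 8 factors by less than 2 SE.

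The targets and partners of the factors were read from 8 gene lists, described here by counts. Lists were taken against preOP in the mean hematoma, with the background of 40.6% called. All 12 measured red cell genes fell, with a median of -8.21. They included Rhag, a Rhesus complex membrane protein, at -9.29 (SE 0.58) and the blood group protease Kel at -9.20 (SE 0.65). The summed level of these 12 genes was 9432 to 14790 CPM in preOP and 19.6 to 289.5 CPM in hematomas. Globin markers, 6 genes, summed to 132600 to 235800 CPM in preOP and 1153 to 24210 CPM in hematomas, with 6 of 6 lower in the mean hematoma. Hba-a3 went both ways: it was at 3.503, 1.463 and 5.116 CPM in preOP and rose in normal (30.38, 13.1 and 11.49 CPM, adjusted p = 0.0138), and it was at 0 reads in nonunion 1 and 2. The part of red cell precursors in the fall of the 6 factors was not tested.

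All 8 measured megakaryocyte and platelet genes fell (median -6.77), among them the platelet chemokine Ppbp by 7.60 (SE 0.64) and the receptor subunit Gp5 by 6.92 (SE 0.78). All 10 neutrophil granule genes fell (median -5.13), such as Ctsg, cathepsin G, by 6.34 (SE 0.63) and the granule protein gene Ngp by 7.09 (SE 0.76). Among them Ltf was close to 0 in every library. It was at 0.543, 0.708 and 0.616 CPM in preOP and no lower as a group in delayed hematomas, at 0.691, 1.03 and 0.363 CPM. All 13 eosinophil, basophil and mast cell genes fell (median -5.03), with the mast cell IgE receptor Fcer1a at -7.27 (SE 0.58) and the chymase Cma1 at -6.73 (SE 0.95). Il5ra, also of this list, was close to 0 throughout, at 0.308 to 0.740 CPM in preOP and 0.702 CPM in normal 1. These 3 lists were less uniform in normal against preOP alone, with 6 of 8 megakaryocyte, 4 of 10 granule and 9 of 13 eosinophil, basophil and mast cell genes called lower and 0 higher. Of all features 22.1% were called lower and 20.5% higher in that comparison. Lcn2, a granule protein that binds iron carriers, was at 413.5, 72.24 and 66.33 CPM in normal and 38.32 to 50.55 CPM in preOP, with no overlap and no call (2.11, adjusted p = 0.0778). The eosinophil granule gene Prg3 was at 81.26, 30.55 and 22.08 CPM in normal and 16.27 to 17.79 CPM in preOP, also without a call (1.38, adjusted p = 0.171). In delayed and nonunion hematomas Lcn2 was at 5.68 CPM or less and Prg3 at 0.7675 CPM or less.

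Of 13 receptor and oxidase genes of myeloid cells, among which are targets of Spi1, 3 rose, 1 fell and 9 were not called (median 0.89). The lipopolysaccharide receptor Cd14 rose by 3.61 (SE 0.48) and the macrophage growth factor receptor Csf1r by 1.98 (SE 0.34). The Fc receptor Fcgr1a rose by 1.50 (SE 0.50, adjusted p = 0.0342), a call lost without any 1 preOP library or without normal 2 (adjusted p up to 0.142).

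**Figure D5:**
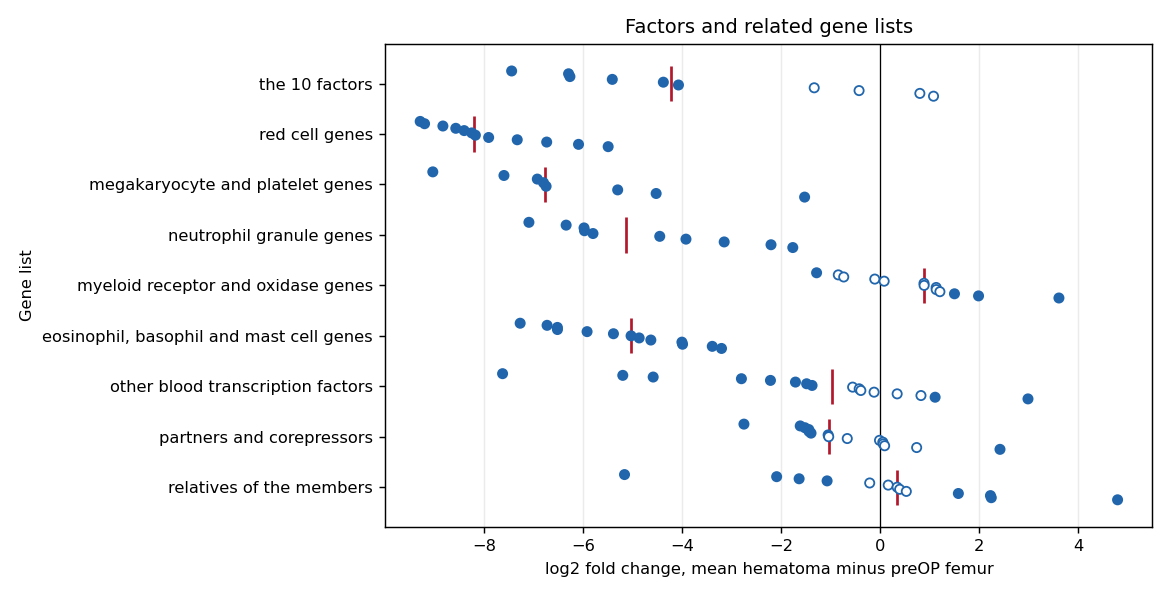
Log2 fold change of the mean hematoma minus preOP for each gene of the 10 factors and of 8 related lists. Points are genes, filled where called, and red lines are list medians. Genes of red cells, platelets, granules and mast cells lie below 0, while receptor and oxidase genes of myeloid cells and relatives of the factors lie on both sides. The point farthest to the right is Gata6, whose mean of 0.0658 CPM in preOP is below the level of 3 reads, so its position is no measure of size.

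Of 16 other blood transcription factors 8 fell, 2 rose and 6 were not called (median -0.97). Klf1, the globin activator of red cells, fell by 7.62 (SE 0.48), the B cell factor Pax5 by 5.20 (SE 0.61) and Bcl11a, a repressor of globin genes, by 4.58 (SE 0.40). Egr2, which acts in macrophages, rose by 2.98 (SE 0.85). Of 15 partners and corepressors 7 fell, 1 rose and 7 were not called (median -1.04). Zfpm1, the cofactor of Gata1, fell by 2.75 (SE 0.35), and Ldb1, the adaptor that Lmo2 links to, by 1.62 (SE 0.27), a call that limma on log2(TPM + 0.1) did not make. Of the small Maf proteins that pair with Nfe2, Mafg fell by 1.52 and Mafk by 1.40, while Maff rose by 2.42 (SE 0.44).

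Relatives of the factors went both ways, with 4 of 13 higher and 4 lower (median 0.34). Spib, the B cell relative of Spi1, fell by 5.16 (SE 0.52), and Lyl1, the close relative of Tal1, by 1.64 (SE 0.32). Cebpb and Cebpd, inducible relatives of Cebpe, rose by 2.23 (SE 0.49) and 1.58 (SE 0.43) in the mean hematoma, with the highest levels in normal. Cebpd was at 33.84 to 61.58 CPM in normal, 3.3 to 7.461 CPM in delayed and 3.237 to 11.67 CPM in nonunion hematomas. In preOP it was at 2.737 to 5.856 CPM, so delayed and nonunion overlapped preOP. Cebpb was at 43.26 to 120 CPM in normal and 5.724 to 19.57 CPM in the other hematomas, against 3.114 to 7.582 CPM in preOP. Lmo1 rose by 2.24 (SE 0.59), which was not called without preOP 2 (adjusted p = 0.0514). Its level was 6.084 to 11.57 CPM in normal, 0.4125 to 1.343 CPM in delayed and 2.136 to 5.549 CPM in nonunion, against 0.2961 to 1.11 CPM in preOP.

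The lists were also read in delayed against normal, with its background of 7.13%. Of 9 neutrophil granule genes tested 4 fell (median -4.54) and of 11 eosinophil, basophil and mast cell genes 3 fell (median -2.31). Those 3 are eosinophil granule genes: Epx fell by 6.26 (SE 0.84), Prg2 by 7.64 (SE 1.43) and Prg3 by 7.23 (SE 1.201). Epx kept its call whichever 1 of the 6 libraries was left out, Prg2 lost it in 3 of 6 cases and Prg3 in 2 of 6 (adjusted p up to 0.0594). Of the 3 granule genes with the largest change, Np4 kept its call in all 6 cases, Lcn2 lost it in 3 and Prtn3 in 5 (adjusted p up to 0.093). Red cell genes, megakaryocyte genes, myeloid receptor genes and other blood factors had 0 calls each of 10, 7, 13 and 16. Of partners only Tcf3, which pairs with Tal1, fell, by 1.89 (SE 0.37, adjusted p = 0.0224). Tcf3 lost its call without delayed 1 or without any 1 normal library (adjusted p up to 0.0814).

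Of 12 relatives tested 4 fell in delayed against normal, Cebpd by 3.22 (SE 0.53), Lmo1 by 3.00 (SE 0.62), Cebpb by 2.93 (SE 0.55) and Lmo4 by 1.11 (SE 0.26). Cebpd lost its call without delayed 1 (adjusted p = 0.0578), Cebpb without normal 1, normal 2 or delayed 3 (up to 0.0726) and Lmo1 without any 1 library of the 2 groups other than delayed 2 (up to 0.0813). In nonunion against normal, with its background of 2.37%, 5 granule genes, 3 eosinophil genes, Cebpb (-3.06, SE 0.56, adjusted p = 0.0299) and Cebpd (-2.75, SE 0.52, adjusted p = 0.0329) fell. Both Cebpb and Cebpd lost that call when any 1 of the 6 libraries was left out (adjusted p up to 0.108). The granule genes Lcn2, Ctsg and Np4 lost it in 6, 5 and 3 of 6 cases, and Prg2, Prg3 and Epx in 6, 5 and 2 of 6 (adjusted p up to 0.0932).

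The genes most like each factor were found over the 12 libraries among 11951 others, as the smallest root mean square difference of log2 CPM after centring each gene. Gata1 was nearest to Klf1 (0.56) and the red cell gene Trim58 (0.61). Gata2 was nearest to Wscd1 (0.40) and Irag1 (0.45), and Gfi1b to the transporter Slc38a5 (0.71) and the globin gene Hba-a2 (0.85). Tal1 was nearest to Tmcc2 (0.59) and Spint1 (0.64), Nfe2 to Lypd8l1 (0.61) and the platelet receptor Treml1 (0.65), and Gfi1 to the serotonin transporter Slc6a4 (0.64) and Rab27b (0.73). Spi1 was nearest to the myeloid adaptor Tyrobp (0.27) and Tspo (0.32), Cebpe to Def6 (0.39) and Ly6i (0.52), and Runx1 to Fam167a (0.31) and an unnamed transcript, NM_001102408 (0.34). Lmo2, with the flattest pattern, was nearest to Leprot (0.13) and NM_001106761 (0.15). None of these neighbours was another of the 10 factors.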

How the data were processed

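RNA sequencing was done on 12 libraries with 3 per group. Per the submitters' processing notes the tools were bcl2fastq 1.8.4, FastQC, Trimmomatic and Salmon and the build was rn6; the sources used here give no other versions. Per the labels' protocols, Trizol was used for extraction and an Illumina TruSeq kit with 1 ug of RNA for the libraries. The deposited files give estimated counts and TPM for 18321 RefSeq transcripts, and per the file headers also effective lengths, which served in 1 alternative.

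Counts were rounded, then added up per symbol, with 17367 transcripts matched to 16425 symbols and 954 kept as single features. They were tested with edgeR 4.0.16 in R 4.3.3 after TMM scaling and filterByExpr, two-sided, in 1 fit of the 9 hematoma libraries (6 residual degrees of freedom) and 1 of all 12 (8 residual degrees of freedom). The SE of a fold change is its size over the root of the F statistic. Levels are TMM-scaled CPM within a gene and deposited TPM between genes. A count of 0 is bounded by 3 reads, 0.12 to 0.46 CPM, which covers counting error only. Lists were described by counts. Alternatives used DESeq2 1.42.0, limma 3.58.1, other scalings, filters and library sets, and each library left out. The edgeR test was also run on simulated data, with an outcome that is not reported here, and 0 pairs of libraries were identical. Named genes are all members, up to 3 called genes of each list with the largest change, or its 2 most abundant where none was called, and the 2 nearest patterns of each member. Epx, Prg2 and Prg3 aside, list genes named with smaller changes (Egr2, Mafg, Mafk, Cebpb, Cebpd, Lyl1, Lmo4) and the values of Cpa3, Hba-a3, and Lcn2 and Prg3 in normal against preOP were chosen after their values were seen. So were the values of Ltf, Il5ra, Ms4a2, Hdc, Kit, Tpsab1 and Tpsb2 and those of Fcer1a, Cebpb, Cebpd and Lmo1 by library. Some list genes that the rule names are not reported here. The members and the lists were chosen with earlier results of these data known.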

Additional observations from a re-analysis of the deposited data

How the results depend on the processing

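The falls of Gata1, Gata2, Gfi1, Gfi1b, Tal1 and Nfe2 in the mean hematoma against preOP kept their direction and call in each of 23 alternatives. Spi1 and Runx1 rose past the threshold there without nonunion 2, alone or with delayed 2, and Spi1 also without delayed 2 alone, with DESeq2 and without ribosomal RNA. Uncalled factors gained a call there 5 times with 1 library left out and 6 times over the other settings, not all of them named here. In nonunion against preOP such gains numbered 2 and 6. The count of members called in delayed against normal was 0, and 1 with the DESeq2 test, when the fit held only the 2 groups, with all 12 libraries in the fit or with limma on log2(TPM + 0.1), and 2 without delayed 2 and nonunion 2. It was 0 whichever 1 library was left out. The Gata1 to Gata2 ratio and the Gata1 to Spi1 ratio missed the threshold, at -2.65 and -8.20, with libraries under 10 reads left out, and the Gfi1b to Gfi1 ratio passed it, at -2.00, with a pseudocount of 1. Signs turned for these uncalled values, and the cause was not tested. For Gfi1b in delayed against normal limma-voom gave -0.32, and leaving out 1 library gave -0.54 to 1.07. Lmo2 in that comparison was 0.10 without delayed 2 and nonunion 2, 0.20 with either limma fit on TPM, and -0.28 to 0.039 with 1 library left out. In nonunion against normal, Gata2 was -0.093 with limma-voom, -0.35 without delayed 2 and nonunion 2, -0.29 and -0.19 with limma on log2(TPM + 0.1) and log2(TPM + 1), and -0.34 to 0.86 with 1 library left out. Tal1 there was -0.64 to 0.46 with 1 library left out, and Lmo2 -0.26 and -0.24 with the TPM fits. Against preOP, Cebpe in normal was -0.24 with the replicate block, -0.15 with limma-voom, -0.038 with effective lengths as offsets and -0.58 to 0.45 with 1 library left out. Lmo2 in delayed was 0.11 with either TPM fit. Runx1 in nonunion was -0.041 with limma on log2(TPM + 0.1) and -0.10 to 0.97 with 1 library left out.

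Same-numbered libraries correlated at -0.182 to 0.187 over 18 pairs, and libraries with different numbers at -0.355 to 0.352. Of 36 cases, each with 3 libraries to match, 17 matched best with their own number. Such weak correlations cannot tell whether same-numbered libraries share an animal, so pairing was tried only as an alternative. With the replicate block members called were 0, 0 and 0 among hematomas, and 8, 7, 7 and 7 for normal, delayed, nonunion and the mean against preOP. All genes called were 433, 148, 0, 5298, 3377, 3385 and 5027 in the same order, against 889, 296, 0, 5466, 3622, 3648 and 5213 without it. Over all alternatives that did not leave out 1 library, the block among them, they ran from 328 to 2076, 148 to 1311, 0 to 183, 1896 to 7560, 1331 to 5414, 1002 to 5425 and 1903 to 7276. With 1 library left out they ran from 176 to 726, 23 to 159, 0 to 1, 3952 to 4846, 2292 to 4033, 2338 to 4221 and 3566 to 6159. Scaling shifted the median of all genes by at most 0.21 log2 in fits of counts and by up to -0.74 on TPM. Without ribosomal RNA 57.5% of calls in delayed against preOP were higher, against 44.6%. Low reads limit the hematoma values of Gata1, Gfi1 and Gfi1b.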
